A study of Homo sapiens with 9 samples.

Results

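The mRNA decapping genes NUDT3, NUDT16, DCP2, DCP1A, EDC3, EDC4, LSM1, PATL1, DCPS and DXO were described in U2-OS cells, an established human osteosarcoma line, with and without overexpression of NCBP2. These 10 genes, of 60609 gene identifiers counted, were listed by symbol and matched by Ensembl identifier. The set was chosen by the NUDT3 level: it was drawn up after NUDT3 had been seen lower in both NCBP2 clones. The levels of the 10 genes in the NCBP2 clones and in the vector clones are therefore given as a description, and the counts of calls printed for that contrast are no test of these genes. What was tested is the difference of the 10 genes between the 2 NCBP2 clones, and 69 other genes of the pathway. Those 69 were listed with earlier results of these data known, so their p-values are not independent of these data. The rule did not use the difference between the clones, but NUDT3 was chosen as lower in both. For NUDT3 that choice favours a small difference between the clones, so its result is not independent of the choice.

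RNA was sequenced after removal of ribosomal RNA, although the molecule field of the labels names polyA RNA. Clone A1 and clone A4, each a single clone that overexpresses the cap-binding protein NCBP2, gave 3 libraries each, called replicates A, B and C. The vector group held 3 libraries, 1 from each of 3 clones made in the same way with an empty vector. The labels give no treatment, and they do not say whether the 3 libraries of an NCBP2 clone came from separate cultures, so p-values measure only the spread between these libraries, which may be technical. The overexpression rests on 2 clones, and a property of those clones cannot be told apart from an effect of NCBP2.

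The cap is the methylated guanosine at the 5′ end of an mRNA, bound in the nucleus by NCBP2 and its partner NCBP1 and in the cytoplasm by eIF4E. In the main route of mRNA turnover the poly(A) tail is shortened first, DCP2 then hydrolyses the cap with help from DCP1A, EDC3, EDC4, PATL1 and the LSM1 to LSM7 ring, and XRN1 degrades the body from the 5′ end. NUDT3 and NUDT16, like DCP2, carry the Nudix fold and cleave caps of subsets of RNAs, DCPS clears the cap fragment left by decay from the 3′ end, and DXO removes incomplete and NAD caps. NUDT3 is also known as a phosphohydrolase of inositol pyrophosphates and of diadenosine polyphosphates.

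NUDT3 (ENSG00000272325.2) lies on chromosome 6 at 34279679 to 34392669 of GRCh38, on the minus strand. Its promoter is shown because NUDT3 was the gene for which the set was drawn up. The 250 bases before its start, chr6:34392670-34392919 on the minus strand, read 5′ to 3′ in the RefSeq table (build GRCh38.p14), held 39 CpG pairs and a G+C content of 71.2%.

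NUDT3: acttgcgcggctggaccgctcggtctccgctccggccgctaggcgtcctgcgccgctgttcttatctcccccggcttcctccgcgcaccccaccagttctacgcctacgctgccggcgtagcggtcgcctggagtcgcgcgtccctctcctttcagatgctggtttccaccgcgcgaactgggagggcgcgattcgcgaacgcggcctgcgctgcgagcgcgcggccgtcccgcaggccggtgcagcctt

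None of the 4 motifs searched on both strands (TATAAA, bound by the TATA-binding protein; CCAAT, bound by NF-Y; GGGCGG, bound by SP1; and AAGATGGC, core letters of the YY1 motif) was found in those 250 bases. The first 50 transcribed bases hold AAGATGGC from base 23, in capitals in chr6:34392631-34392656, minus strand.

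NUDT3 motif: atcgcgcccAAGATGGCggcgcggtc

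Promoter windows of 300 bases, 250 before and 50 after the start, were matched for 9 of the 10 genes, all but LSM1. AAGATGGC was in the NUDT3 window alone of these 9, and 2.89% of the 34943 windows in the table hold it. GGGCGG was in 7 of the 9 windows (44.9% of all windows), CCAAT in the 3 windows of NUDT16, DCP2 and DXO (34.6% of all windows), and TATAAA in 0 of 9 (11.6% of all windows). The NUDT3 window had a G+C content of 72%, against a median of 58.7% over the table, and 50 CpG pairs, the most of the 9 windows, against a median of 14. PATL1 followed with 42 CpG pairs, and NUDT16 had the fewest, 17. These matches describe letters and not occupied sites.

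The stretch on which NUDT3 was counted is narrow. In GENCODE release 44, 43.29% of its 9900 exonic bases are shared on the same strand with the readthrough gene RPS10-NUDT3, whose transcripts run from RPS10 into NUDT3, and a read in shared bases is assigned to neither gene. The 5614 bases left to NUDT3 are 406 bases of exon 1 (7.23%) and the last 5208 bases of exon 5 (92.8%), none of the latter coding. RPS10-NUDT3 itself has 2 unshared exonic bases and had 0 counts in all 9 libraries. The noncoding RNA ENSG00000225339 covers 71.62% of the exonic bases of NUDT3 on the opposite strand, including all of the 5208 bases. Without regard to strand only exon 1 is therefore left, with 0 to 35 counts per library. For replicates A, B and C in turn, the vector libraries had 0, 7 and 0 such counts. Clone A1 had 0, 11 and 8, and clone A4 had 5, 1 and 35. These counts were not lower in the NCBP2 clones, but they lie near the floor and are too few to measure a level. The NUDT3 counts thus come almost wholly from the end of the last exon, and a lower gene level cannot be told apart from less use of that end. The annotation used for counting is not given in the sources used here, and these shares hold for release 44.

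**Figure D1:**
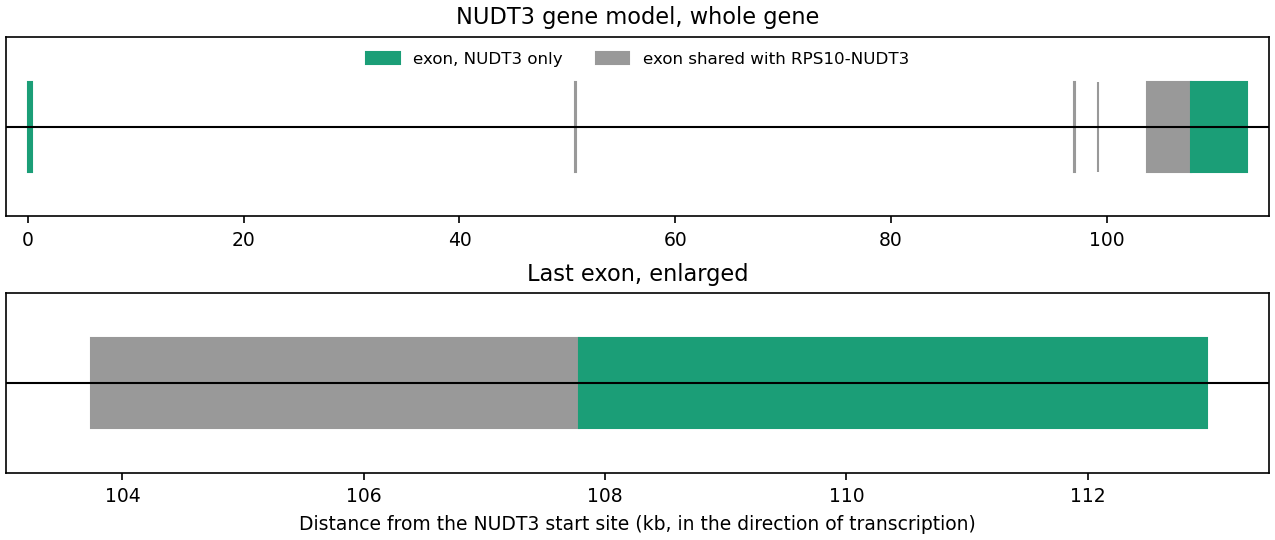
Exons of NUDT3 drawn to scale by distance from the start site in kb, the whole gene above and the last exon below; green exons belong to NUDT3 alone and grey ones are shared with RPS10-NUDT3. The 5208 green bases at the end of exon 5 outweigh the 406 green bases of exon 1, and the short exons between appear as thin lines.

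NCBP2, the overexpressed gene, was measured first as a check of the labels. Its level, as a count relative to the library total (CPM, scaled by the TMM method), for replicates A, B and C in turn, was 98.4, 90.6 and 98.3 in the vector libraries, 299, 348 and 305 in the clone A1 libraries and 796, 1035 and 456 in those of clone A4. The 6 libraries of the NCBP2 clones all lay above the vector libraries, by a log2 fold change of 1.73 for clone A1 (SE 0.242, edgeR quasi-likelihood test with Benjamini-Hochberg adjustment, adjusted p = 0.0327) and 2.99 for clone A4 (SE 0.254, adjusted p = 0.000417). Counts in genes ranged from 29234022 to 50554080 per library. Clone A1 replicate A had the fewest and stood apart, with correlations of log2 CPM of 0.899 to 0.928 to the other libraries, against 0.947 to 0.970 over the 28 other pairs. Of the mesenchymal markers, COL1A1, SPARC, RUNX2, VIM and CD44 were present in all 9 libraries, COL1A2 reached at most 1.15 CPM, and TERT, known to be silent in these cells, had 0 counts throughout. Of the markers of other cell types, EPCAM reached 5.58 CPM, CDH1 3.63, PTPRC 2.01 and CDH5 1.05, and PECAM1 and ALB stayed near 0.

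NUDT3 was lower in both NCBP2 clones, at about 53.4% of the vector level. Clone A1 gave 25.0, 31.9 and 28.4 CPM, replicates in the order A, B, C here and below. In clone A4 it was measured at 26.9, 36.9 and 28.1 CPM. The vector libraries gave 58.1, 58.7 and 49.0 CPM. The highest NCBP2 library, clone A4 replicate B, lay below the lowest vector library, replicate C, so the groups did not overlap. In raw counts NUDT3 had 2683, 3006 and 2007 reads in the vector libraries, 709, 1187 and 1206 in the clone A1 libraries and 1282, 1623 and 1256 in those of clone A4.

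The mean of NUDT3 was 28.4 ± 3.48 CPM (SD, n = 3) in clone A1, 30.7 ± 5.47 (SD, n = 3) in clone A4 and 55.2 ± 5.45 (SD, n = 3) in the vector clones. The log2 fold change against vector was -0.96 (SE 0.194) in clone A1, -0.85 (SE 0.194) in clone A4 and -0.90 (SE 0.16) for the 6 NCBP2 libraries together, called the NCBP2 arm. Both clones were compared with the same 3 vector libraries, so their values are not independent of each other. Without clone A1 replicate A, the library that stood apart, the value was -0.87 in clone A1. These differences chose the gene. Of the 6 mesenchymal markers, 1 was lower without overlap in the NCBP2 arm, VIM, at 1302 to 1757 CPM against 2004 to 2082 in the vector libraries, and the summed level of the 6 was 3784 to 5507 against 5328 to 6186 CPM. Of the 6 markers of other cell types, 1 was also lower without overlap, the epithelial cadherin CDH1, at 0.598 to 2.09 CPM against 2.73 to 3.63, and the summed level of these 6 was 4.76 to 9.13 against 6.66 to 7.77 CPM. Lower values without overlap were seen in 2.26% of all genes tested. The part of these markers in the NUDT3 difference was not tested. In bulk RNA, a lower level per cell and fewer cells that hold the RNA cannot be told apart.

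Among all 21682 genes tested, 3.68% had a log2 fold change at or below that of NUDT3 in the NCBP2 arm, with 7.43% for clone A1 and 4.86% for clone A4. NUDT3 was the 1 gene of 10 whose 6 NCBP2 libraries all lay below all vector libraries, an arrangement seen in 2.26% of all genes tested. At the threshold of adjusted p under 0.05 by edgeR, 0 of the 10 genes passed in clone A1 against vector, where 0.0646% of all genes did. The count was also 0 of 10 in clone A4 against vector (0.115% of all genes) and in the NCBP2 arm against vector (0.0184%). Other rules of calling counted NUDT3 and none of the other 9 genes. An unadjusted p under 0.05 by edgeR was met by NUDT3 in clone A1, in clone A4 and in the arm, and by 7.51%, 5.25% and 5.71% of all genes. DESeq2 called NUDT3 in these 3 comparisons, beside 1.26%, 0.853% and 0.475% of all genes, and so did limma voom with a quality weight per library, beside 1.37%, 1.07% and 0.996%. EdgeR with no filter on low counts called NUDT3 in clone A1 and in the arm, beside 0.827% and 0.053% of all genes, and 0 of 10 in clone A4, beside 0.432%. Nothing is read from these counts, since the contrast chose NUDT3.

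NUDT3 did not differ detectably between the 2 NCBP2 clones. The log2 value of clone A4 minus clone A1 was 0.11 (SE 0.193, edgeR, adjusted p = 0.912), and the values of the clones overlapped. The choice of a gene lower in both clones favours such a small difference. NCBP2 itself stood higher in clone A4, at a mean of 763 ± 291 against 317 ± 27.1 CPM (SD, n = 3 each), with all 3 libraries of clone A4 above all 3 of clone A1. That NCBP2 difference, a log2 fold change of 1.26 (SE 0.239), did not pass the edgeR threshold (adjusted p = 0.0764).

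NUDT16, a Nudix enzyme that decaps U8 small nucleolar RNA and some mRNAs, lay near the same level in all groups. It was measured at 16.2, 13.1 and 14.5 CPM in the vector libraries, 15.0, 15.0 and 15.1 in the clone A1 libraries and 16.4, 9.19 and 13.9 in those of clone A4. Clone A4 replicate B was the low value, and the groups overlapped. The log2 fold change against vector was 0.04 (SE 0.244) in clone A1 and -0.15 (SE 0.243) in clone A4.

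DCP2, the catalytic subunit of the main decapping complex, was the most abundant of the 10 in CPM. It was measured at 231, 119 and 243 CPM in the vector libraries, 303, 218 and 186 in the clone A1 libraries and 256, 194 and 215 in those of clone A4. Vector replicate B was the lowest and clone A1 replicate A the highest of the 9, and the groups overlapped. The log2 fold change was 0.25 (SE 0.262) in clone A1 and 0.17 (SE 0.262) in clone A4. Without vector replicate B these values were -0.01 and -0.10, and by limma voom with all libraries they were -0.06 and 0.11. The direction thus rested on that library and, for clone A1, also on the method.

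DCP1A, the activator that binds DCP2, was measured at 74.7, 98.2 and 88.3 CPM in the vector libraries, 73.9, 94.4 and 92.6 in the clone A1 libraries and 75.5, 86.9 and 82.0 in those of clone A4. The groups overlapped almost fully, and the log2 fold change in clone A1 was 0.00 (SE 0.171) and in clone A4 -0.10 (SE 0.171).

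EDC3, a scaffold that bridges the decapping complex and the helicase DDX6, was measured at 27.5, 26.8 and 20.6 CPM in the vector libraries, 16.1, 27.4 and 24.3 in the clone A1 libraries and 21.8, 21.6 and 23.1 in those of clone A4. Clone A1 replicate A was the low value, and the log2 fold changes of -0.14 (SE 0.229) in clone A1 and -0.17 (SE 0.228) in clone A4 were smaller than their errors. EDC4, the large scaffold that joins DCP1A to DCP2 in animals, was measured at 15.5, 22.4 and 15.6 CPM in the vector libraries, 10.7, 14.9 and 16.4 in the clone A1 libraries and 16.3, 12.4 and 26.1 in those of clone A4. Here clone A4 replicate C was the high value and clone A1 replicate A again the low one. The log2 fold change of EDC4 was -0.35 (SE 0.298) in clone A1, or -0.18 without that low library, and 0.04 (SE 0.297) in clone A4. EDC4 shares 21.29% of its exonic bases with a noncoding RNA on the same strand, and reads there are lost to it.

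LSM1, the subunit that makes the cytoplasmic LSM ring specific to mRNA decay, was measured at 20.8, 20.4 and 20.7 CPM in the vector libraries, 19.7, 16.3 and 23.8 in the clone A1 libraries and 20.4, 19.3 and 19.5 in those of clone A4. The vector libraries spanned less than 1 CPM and lay within the range of clone A1. PATL1, which links that ring to DCP2, was measured at 165, 207 and 177 CPM in the vector libraries, 144, 188 and 208 in the clone A1 libraries and 144, 178 and 158 in those of clone A4. Its log2 fold change was -0.02 (SE 0.176) in clone A1 and -0.19 (SE 0.176) in clone A4, and the groups overlapped. The values of LSM1 were -0.05 (SE 0.2) and -0.06 (SE 0.2).

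DCPS, the scavenger enzyme, was measured at 13.2, 15.0 and 9.17 CPM in the vector libraries, 10.1, 13.1 and 16.4 in the clone A1 libraries and 11.8, 11.2 and 17.4 in those of clone A4. Replicate C was the highest in both NCBP2 clones and the lowest in the vector group, and the log2 fold changes were 0.09 (SE 0.282) and 0.11 (SE 0.282). DXO, the cap quality-control enzyme, had the lowest counts and the widest spread, at 5.74, 10.2 and 5.12 CPM in the vector libraries, 1.51, 5.59 and 8.09 in the clone A1 libraries and 5.01, 7.01 and 10.7 in those of clone A4. Clone A1 replicate A held 43 DXO reads, and all groups overlapped. The log2 fold change of DXO was -0.47 (SE 0.512) in clone A1, or -0.03 without that library, and 0.10 (SE 0.508) in clone A4.

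**Figure D2:**
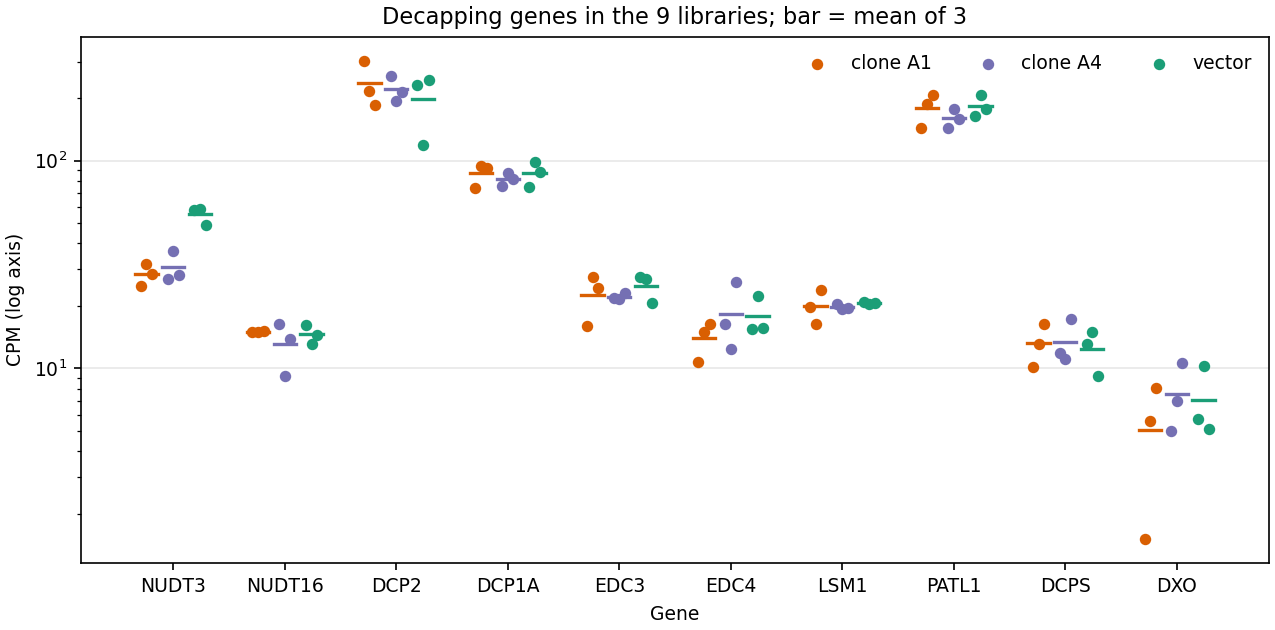
Level of the 10 decapping genes in CPM (log axis) in each of the 9 libraries, as points coloured by group, with a bar at the mean of the 3 libraries. NUDT3 is the gene whose vector points, 49.0 to 58.7 CPM, all lie above those of both NCBP2 clones, 25.0 to 36.9 CPM, and the other 9 genes overlap.

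For the 9 genes other than NUDT3, the log2 fold change of the NCBP2 arm lay between -0.16 (EDC3) and 0.21 (DCP2), each smaller than its standard error, and the sign turned in at least 1 of 16 alternatives for 8 of the 9, all but EDC3. For clone A1 the 9 lay between -0.47 (DXO) and 0.25 (DCP2), and in clone A4 between -0.19 (PATL1) and 0.17 (DCP2). The median over all 10 genes in the NCBP2 arm was -0.08, beside 0.02 over all genes tested. It was -0.04 beside -0.02 in clone A1, and -0.08 beside 0.03 in clone A4.

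Between the clones, 0 of the 10 genes passed the threshold by edgeR in clone A4 against clone A1, where 0.161% of all genes tested did. By edgeR 0 of 10 had an unadjusted p under 0.05, which 6.63% of all genes met. DESeq2 called 0 of 10, beside 1.13% of all genes, and limma voom called 0, beside 0.687%. By limma voom PATL1 was the 1 gene of 10 at an unadjusted p under 0.05, which 2616 of the 21682 genes tested met. The largest difference was that of DXO, 0.57 higher in clone A4 on the log2 scale (SE 0.512, adjusted p = 0.851 by edgeR), followed by EDC4 at 0.39 (SE 0.298, adjusted p = 0.832). Clone A1 replicate A, the library that stood apart, held the lowest value of both, and without it the difference was 0.15 for DXO and 0.24 for EDC4 (edgeR adjusted p = 1 for each). NUDT16 was the lowest, at -0.19 (SE 0.244, adjusted p = 0.884 by edgeR), and the other members lay between -0.17 (PATL1) and 0.11 (NUDT3). None of the 10 genes separated the 3 libraries of clone A4 from those of clone A1, which 13.6% of all genes tested did. The median of the 10 was -0.02, beside 0.04 over all genes.

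**Figure D3:**
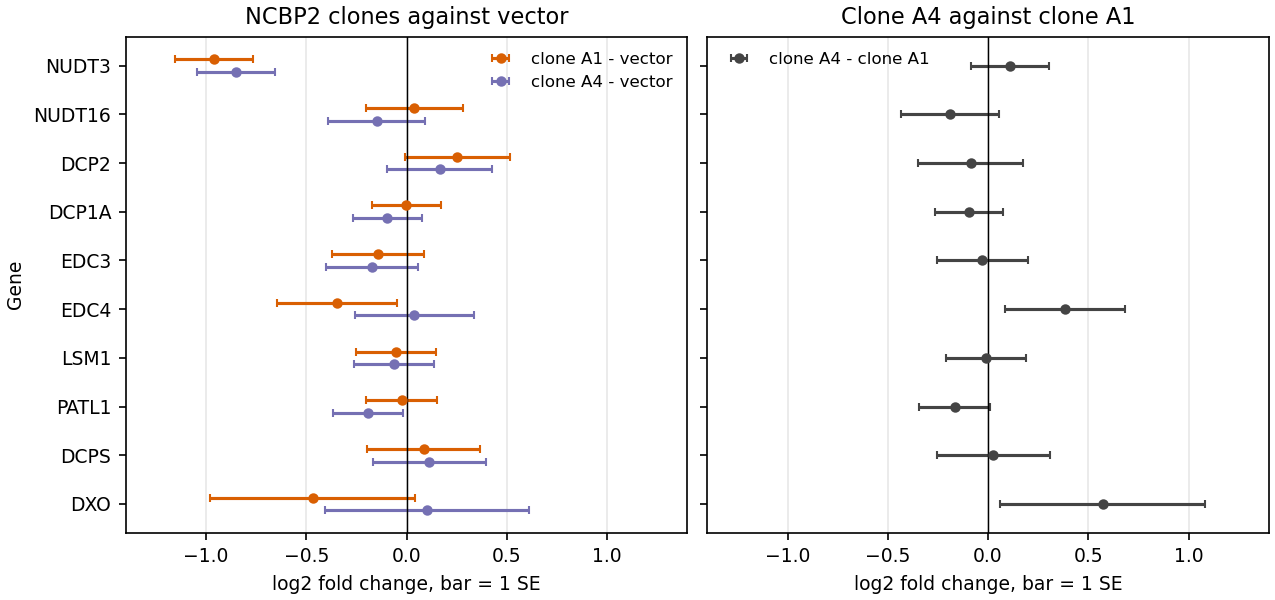
Log2 fold change of the 10 genes with a bar of 1 SE, at left for clone A1 (orange) and clone A4 (purple) against vector and at right for clone A4 against clone A1. NUDT3 stands at -0.96 and -0.85 at left, where it was chosen for that difference, and at 0.11 at right; the other 9 genes lie between -0.47 and 0.25 at left.

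Levels of different genes were compared per kb of unshared exon, as the mean over the 9 libraries. The length joined all annotated exons of a gene, whichever transcripts were expressed, so the order depends on the annotation. For DXO the joined exons form 1 block of 2481 bases. PATL1 was highest, at 40.2 CPM per kb, and its range, 33.3 to 47.9, did not overlap that of DCP2, the next gene, at 19.2 (10.5 to 26.6). DCP1A followed at 14.0, LSM1 at 12.0, NUDT3 at 6.79, EDC3 at 4.57, EDC4 at 3.46, DXO at 2.64, NUDT16 at 2.03 and DCPS at 1.65. Below PATL1, the range of each gene overlapped that of the next. LSM1 nevertheless exceeded NUDT3, and NUDT3 exceeded EDC3, in 9 of 9 libraries, whereas DXO exceeded NUDT16, and NUDT16 exceeded DCPS, in 6 of 9. NUDT3 stood at 9.84 ± 0.971 CPM per kb (SD, n = 3) in the vector clones and at 5.26 ± 0.762 (SD, n = 6) in the NCBP2 arm, where EDC3 stood at 4.40 ± 0.740 (SD, n = 6).

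The genes around NUDT3 lay near the median of all genes. The 20 tested genes nearest to it, 10 on each side, span chromosome 6 from 33419661 to 34877514 and had a median log2 fold change of -0.01 in the NCBP2 arm, with 11 of 20 below 0, 0 called and 2 at or below the value of NUDT3. The median was -0.08 for clone A1 and 0.01 for clone A4, where the count called was also 0. The nearest on one side were ENSG00000225339, SMIM29 and HMGA1, and on the other RPS10, PACSIN1 and SPDEF. The antisense RNA ENSG00000225339 had 11 to 45 counts per library, with a log2 fold change of -0.40 (SE 0.542) in the NCBP2 arm, and its groups overlapped.

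Among the levels most like that of NUDT3 over the 9 libraries, by Pearson correlation of log2 CPM among 12741 genes, were those of LRRC59, a ribosome-associated protein of the endoplasmic reticulum (r = 0.980), MKRN1, an E3 ubiquitin ligase (0.968), SLC37A3, a membrane transporter (0.963), and JCAD, a protein of endothelial cell junctions (0.959). These are descriptions over 9 libraries that fall into groups, and the libraries share their clones and vector controls. MKRN1 and SLC37A3 lie close together on chromosome 7, from 140453033 and from 140293693. LRRC59 lies on chromosome 17 from 50375059, and JCAD on chromosome 10 from 30012803. The part of chromosome segments in this likeness was not tested. LRRC59 was measured at 120.5 to 191 CPM in the 6 NCBP2 libraries and 217 to 258 in the vector libraries. The correlation of NUDT3 with the other 9 decapping genes ran from -0.512 (DCP2) to 0.507 (EDC3).

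Beyond the 10 genes, 69 genes of the pathway were listed with earlier results of these data known. Of these, 65 had enough counts to be tested, and PATL2, NUDT7, NUDT18 and ITGB6 did not. By edgeR, 1 of the 65 passed the threshold in clone A4 against vector, DCP1B, which fell, where 0.115% of all genes passed. In that comparison 3 had an unadjusted p under 0.05 (DCP1B, CNOT4 and BTG1), which 5.25% of all genes met. The count past the threshold was 0 in clone A1 against vector, in clone A4 against clone A1 and in the NCBP2 arm against vector. Of all genes, 0.0646%, 0.161% and 0.0184% passed there. In these comparisons 6, 6 and 4 of the 65 genes had an unadjusted p under 0.05, which 7.51%, 6.63% and 5.71% of all genes met. DESeq2 called 1, 1 and 0 in these comparisons, IP6K3 in the first and DCP1B in the second, and limma voom 0, 1 and 0, again DCP1B. Of all genes, DESeq2 called 1.26% in clone A1 against vector, 1.13% in clone A4 against clone A1 and 0.475% in the arm. Limma voom called 1.37%, 0.687% and 0.996% in the same order. The median log2 fold change of the 65 was 0.04 in clone A1, -0.04 in clone A4 and -0.02 in the NCBP2 arm, beside -0.02, 0.03 and 0.02 over all genes.

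DCP1B, the paralog of DCP1A, lies on chromosome 12 at 1946053 to 2004535 of GRCh38. It was measured at 44.1, 38.7 and 38.7 CPM in the vector libraries, 33.3, 31.2 and 33.1 in the clone A1 libraries and 19.4, 18.0 and 18.8 in those of clone A4. The 3 groups did not overlap, with clone A4 lowest and vector highest. Of all genes tested, 2.26% had all NCBP2 libraries below all vector libraries, and 13.6% separated the 2 NCBP2 clones. DCP1B did both. The log2 fold change was -1.11 for clone A4 (SE 0.171, edgeR adjusted p = 0.0296) and -0.32 for clone A1 (SE 0.169, adjusted p = 0.718). Clone A4 minus clone A1 was -0.80 (SE 0.17, edgeR adjusted p = 0.146), and this difference was called by DESeq2 (adjusted p = 0.000324) and by limma voom (adjusted p = 0.0391).

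The call of DCP1B in clone A4 depended on single libraries. The edgeR adjusted p was 0.0773 without clone A1 replicate B, 0.0752 without clone A1 replicate C, 0.203, 0.136 and 0.111 without clone A4 replicate A, B or C, 0.193 without vector replicate A and 0.12 without vector replicate C. The log2 fold change stayed between -1.17 and -1.06 throughout these. The 20 genes nearest to DCP1B, from 911736 to 2941138 on chromosome 12, had a median log2 fold change of -0.93 in clone A4, with 19 of 20 below 0 and 2 called, ADIPOR2 and RHNO1. In clone A1 their median was 0.08 and 0 were called. In clone A4 DCP1B was lower together with its neighbours, and the part of that segment in the DCP1B difference was not tested.

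**Figure D4:**
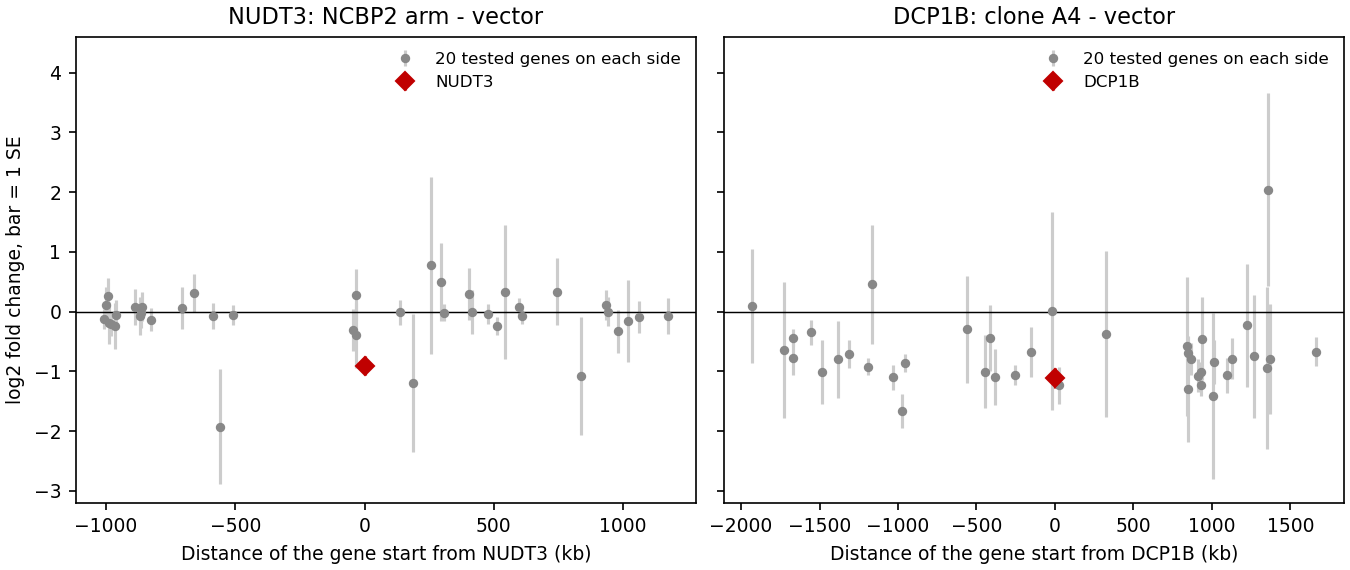
Log2 fold change with a bar of 1 SE against the distance of each gene's start in kb, for NUDT3 (red diamond, left, NCBP2 arm against vector) and DCP1B (red diamond, right, clone A4 against vector) with the 20 nearest tested genes on each side in grey. Grey points scatter around 0 beside NUDT3, while most lie below 0 beside DCP1B, with a median of -0.79 over these 40 genes.

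Of the cofactors of decapping and the 5′ to 3′ decay enzymes, 19 of 20 genes were tested, and 0 rose and 0 fell in clone A1, 0 rose and 1 fell in clone A4 (DCP1B), and 0 passed in the NCBP2 arm. After DCP1B the largest difference in the arm was that of PNRC1, a nuclear receptor coactivator that binds the decapping complex, at -0.34 (SE 0.264, adjusted p = 0.999 by edgeR). The list's median was -0.02 in the arm, beside 0.02 over all genes. Of the other Nudix hydrolases, 18 of 20 were tested and 0 passed in any of the 4 comparisons, and none had an unadjusted p under 0.05 in the arm. NUDT8 (0.91, SE 0.47, adjusted p = 0.916) and NUDT13 (0.36, SE 0.272, adjusted p = 0.999 by edgeR) had the largest arm differences, NUDT8 at under 2 CPM in every library, and the median of the list was 0.07.

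All 18 genes of deadenylation, the step before decapping, were tested and 0 passed in any comparison by edgeR, and 3 had an unadjusted p under 0.05 in the arm (TOB1, CNOT4 and BTG2, the last an antiproliferative adaptor of the deadenylase), beside 5.71% of all genes, where the median was -0.06. TOB1, an adaptor of the CCR4-NOT deadenylase, was at -0.43 (SE 0.176, adjusted p = 0.784 by edgeR) and CNOT4, its E3 ligase subunit, at -0.43 (SE 0.128, adjusted p = 0.544). CNOT4 was measured at 56.4 to 63.5 CPM in the 6 NCBP2 libraries and 73.1 to 86.6 in the vector libraries, without overlap. TOB1 was also lower without overlap, though narrowly, at 53.61 to 91.15 against 91.22 to 94.53 CPM. Of all genes tested, 2.26% were lower in this way. The 20 nearest tested genes to CNOT4 on chromosome 7 had a median of -0.35 in the arm, with 16 of 20 below 0. The genes around TOB1, on chromosome 17 from 50862223, were not examined. LRRC59 lies on the same chromosome from 50375059.

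The 5 kinases that make the inositol pyrophosphates NUDT3 hydrolyses were all tested, and 0 passed by edgeR. IP6K3 had 63, 50 and 37 counts in the vector libraries, 0, 0 and 8 in the clone A1 libraries and 35, 13 and 20 in those of clone A4, all under 1.4 CPM. In CPM all NCBP2 libraries lay below all vector libraries, as for 2.26% of all genes tested. IP6K3 was near the floor throughout. This gene lies among the 20 neighbours of NUDT3, and DESeq2 called it lower in clone A1, beside 1.26% of all genes called. PPIP5K2 was at 0.50 in the arm (SE 0.336, adjusted p = 0.999 by edgeR). Of 4 mRNAs linked in earlier work to decapping by NUDT3 or DCP2, 3 were tested and 0 passed. LCN2, a secreted lipocalin, was at -0.38 (SE 0.742, adjusted p = 0.999 by edgeR) and EXOSC4, an exosome subunit, at 0.31 (SE 0.511, adjusted p = 0.999). Leaving out single libraries moved these arm values from -0.77 to -0.02 for LCN2, from 0.02 to 0.94 for EXOSC4 and from 0.15 to 0.71 for PPIP5K2, so their size is not settled. LCN2 reached at most 2.07 CPM and EXOSC4 at most 6.38. The remaining tested mRNA, FN1, had 442 to 956 CPM in the NCBP2 libraries and 501 to 1042 in the vector libraries. Its arm value was -0.29 (SE 0.247, adjusted p = 0.999 by edgeR). FHIT and HINT1, enzymes that cleave dinucleotide and cap-derived substrates, did not pass either, at -0.18 (SE 0.508, adjusted p = 0.999 by edgeR) and -0.10 (SE 0.167, adjusted p = 0.999) in the arm. The log2 value of clone A4 minus clone A1 was 1.48 for FHIT (SE 0.47, edgeR adjusted p = 0.452), at 1.57 to 1.91 against 0.493 to 0.752 CPM.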

How the data were processed

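The deposited tables hold raw read counts per gene, whole numbers with no normalization. The submitters' processing notes name STAR 2.7.1a and GRCh38, and the annotation release is not given in the sources used here. The sense-strand counts (column 3, read from the values) were used, and the 4 lines naming no gene, 44.5% to 63.6% of a library's reads, were left out. Symbols and exons came from GENCODE release 44, matched by identifier (60295 of 60609). The 10 genes and the pathway lists were chosen with earlier results of these data known. Pathway genes named are those past the threshold and the 2 per list with the largest difference in the NCBP2 arm. BTG1, BTG2 and FN1 were named after their values were seen. Groups came from the titles. The test was edgeR 4.0.16 (R 4.3.3), quasi-likelihood, robust, after filterByExpr and TMM scaling, Benjamini-Hochberg adjusted p under 0.05 over all 21682 genes, in 1 fit with 3 groups and, for the arm, 1 with 2. It was also run on simulated counts with independent libraries and the same spread for every gene. That run leaves out the shared clones of these data and is no check of them. CPM used TMM-scaled totals, and log2 CPM a prior count of 2. Likeness was ranked among genes with a symbol and an average log2 CPM of 1 or more. One gene that this ranking named is not reported here. DESeq2 1.42.0 and limma 3.58.1 were alternatives. Exonic bases were counted per strand, and motifs searched on both strands. Counts carry no molecular identifiers.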

Additional observations from a re-analysis of the deposited data

Results flagged for a closer look

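Among the 6 libraries of the NCBP2 arm, NUDT16 was far from the others in clone A4 replicate B, at 9.19 CPM, where the gap to the nearest library was 0.65 of the whole range, above the Dixon critical value of 0.625. EDC4 was far from the others in clone A4 replicate C, at 26.1 CPM, with a gap of 0.633 of the range. Chance alone gives about 1 such value in 20 groups, and 10 genes were examined.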

How the results depend on the processing

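NUDT3 against vector kept its direction in the 15 alternatives that measured it, between -1.06 and -0.87 for clone A1 and between -1.03 and -0.78 for clone A4. This contrast chose NUDT3 and the alternatives reuse the same libraries, so the kept direction is no test. Counted without regard to strand NUDT3 dropped out, and the number of the 10 genes lower without overlap was then 0. Summing NUDT3 with RPS10-NUDT3 left -0.90, which was fixed in advance because RPS10-NUDT3 had no counts in any library. The pathway genes tested were 65 in the main fit, up to 67 without single libraries and 69 with no filter on low counts. They gave 1 call in clone A1 by DESeq2 and with no filter on low counts. In clone A4 they gave 0 with only the 6 libraries compared and 0 to 1 without single libraries, and in clone A4 against clone A1 they gave 1 by DESeq2 and by voom. In clone A4 against clone A1, where none of the 10 genes passed, signs turned by voom for NUDT3 (-0.061), DCP2 (0.171), LSM1 (0.052) and DCPS (-0.153), and without regard to strand for LSM1 (0.310) and DCPS (-0.047). Leaving out single libraries, the difference ranged from -0.061 (without clone A4 replicate B) to 0.197 for NUDT3, from -0.391 to 0.003 (without clone A4 replicate B) for NUDT16, and from -0.227 to 0.137 (without clone A1 replicate A) for DCP2. It ranged from -0.221 (without clone A1 replicate A) to 0.128 (without clone A1 replicate B) for EDC3, from -0.142 to 0.139 (without clone A1 replicate C) for LSM1, and from -0.219 (without clone A4 replicate C) to 0.214 for DCPS. FHIT in the arm ranged from -0.381 to 0.013 (without vector replicate C). The cause was not tested.

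With the replicate letter as a replicate block, 0 of the 10 genes passed between the clones, and the pathway calls were unchanged in number. Over all genes the block gave 38, 53, 51 and 13 calls for clone A1, clone A4, their difference and the arm, against 14, 25, 35 and 4 without it. Not every same-letter pair deviated together, with correlations down to -0.102 (clone A1 C with vector C). All-gene calls also moved to 274, 185, 246 and 103 by DESeq2, 312, 163, 231 and 20 with no filter, 297, 233, 149 and 216 by voom, and 0 in the arm with counts summed per clone (906 at an unadjusted p under 0.05). The neighbours of DCP1B in clone A4 had a median of -0.69 with 5 genes on each side and -0.79 with 20, and they and those of CNOT4 were added after seeing the data. Among the 10 genes, low counts limit DXO most. Among the pathway genes named, they limit IP6K3, LCN2, FHIT, NUDT8 and EXOSC4.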
